A study of Mus musculus with 4 samples.

Results

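The 9 genes described here encode small calcium-binding S100 proteins (S100a4, S100a6, S100a10, S100a11 and S100a13), galectins (Lgals1 and Lgals3), annexin A2 (Anxa2) and the intermediate filament protein vimentin (Vim). They were found by gene symbol among the 31053 genes of the count matrices, and every symbol matched a single gene. The list was chosen by measured values of these same libraries: genes whose levels rose with effector maturation of thymic invariant natural killer T (iNKT) cells, and, for S100a6, a difference between genotypes that ran in opposite directions in early and in mature cells. Levels by stage, and every genotype value of S100a6, are therefore given as a description, with no test. The other 8 genes were tested for differences between genotypes.

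S100 proteins are small proteins that change shape on binding calcium and then attach to partner proteins, among them annexins and parts of the cytoskeleton. S100A10 does so without calcium, as the constitutive partner of annexin A2, a protein that binds membrane phospholipids when calcium rises. Galectins bind sugars that carry beta-galactoside, and vimentin builds the intermediate filaments of lymphocytes and many other cells that move through tissue. In conventional T cells, several of these genes are widely used as markers of effector and memory cells.

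Single-cell RNA-seq with the 10x Genomics Chromium 5' kit was performed on thymic iNKT cells of 2 C57BL/6 mice (wildtype genotype) and 2 Hivep3-/- mice, a line bred onto the C57BL/6 background that lacks the zinc finger protein HIVEP3. All mice were untreated and 8 to 9 weeks old. Each mouse gave 1 library, named here by its genotype and replicate number. Per the study's methods, cells binding CD1d tetramers loaded with PBS57, a lipid recognised by the iNKT cell receptor, were sorted at an equal ratio of CD44low and CD44high cells. The share of each class of cells in a library therefore depends on that sort and is not its share in the thymus. The sources used here do not say which libraries were sorted or sequenced together or which part of Hivep3 was deleted.

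The libraries held 4243 to 8374 barcodes and 31381738 to 48291764 UMIs (molecular tags counted once per captured transcript), of which 3651 to 7231 cells passed the filters, with a median of 4596 to 6833 UMIs per cell. Cells were clustered without the 9 genes and clusters were named from markers: 112 to 394 stage 0-like cells per library (the earliest precursors, marked by Cd24a, Itm2a and Egr2), 273 to 1217 cycling-like, 418 to 1647 iNKT2-like, 126 to 224 iNKT17-like and 2358 to 3579 iNKT1-like cells. Levels, written CPM, are the UMIs of a gene per 1000000 UMIs of all genes, both summed over the cells of 1 class in 1 library. Hivep3 did not check the labels, standing at 38.5 and 36.4 CPM in the C57BL/6 libraries and at 101 and 68.0 CPM in the Hivep3-/- libraries. Counts are given per gene and do not show which part of it was read. The Y-linked gene Ddx3y gave 0 UMIs in C57BL/6 replicate 1 and 1162 to 1580 UMIs in the other 3 libraries. Xist, a transcript of female cells, gave 14609 UMIs in C57BL/6 replicate 1 and 3 to 25 UMIs in the other 3. By these transcripts C57BL/6 replicate 1 was female and the others male, so sex was not balanced between genotypes. C57BL/6 replicate 1 thus stands apart, and results that change without it are marked. Pairs of libraries shared 18 to 43 barcodes.

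All 5 S100 genes lie on the plus strand of chromosome 3 (GRCm38, the assembly also called mm10, with GENCODE vM21 annotation). S100a13 (chr3:90514435-90524581), S100a4 (chr3:90603771-90606045) and S100a6 (chr3:90612882-90624181) sit together, with 79.2 kb between the first pair and 6.84 kb, holding S100a5, between the second. S100a11 (chr3:93520488-93526287) and S100a10 (chr3:93555080-93564643) form a second group 2896 kb away, 28.8 kb apart with no coding gene between them. Lgals1 lies at chr15:78926725-78930465, Lgals3 at chr14:47367751-47386160, Anxa2 at chr9:69453620-69491795 and Vim at chr2:13573927-13582826, all on the plus strand. S100a4 shares 302 exonic bases with the gene model Gm42674 on the same strand, so its counts are uncertain for reads within those bases. Anxa2 shares 98 exonic bases with an antisense gene, Gm16144.

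Promoter sequences are shown for S100a4, S100a6 and Lgals3, the genes whose levels differed most between classes or genotypes. Each is the 250 bases before the RefSeq start of the gene in GRCm38.p6 on the plus strand. The windows are chr3:90603520-90603769 for S100a4, chr3:90612644-90612893 for S100a6 and chr14:47373610-47373859 for Lgals3. RefSeq and GENCODE starts can differ. By the GENCODE positions above, the Lgals3 window lies inside the gene and the S100a6 window ends past the gene start. Capitals mark the searched motifs on either strand, which are CACCC (bound by KLF factors), TGTGGT (Runx), TGANTCA (AP-1) and TCACACC (T-box). TCACACC followed by C would overlap CACCC.
S100a4: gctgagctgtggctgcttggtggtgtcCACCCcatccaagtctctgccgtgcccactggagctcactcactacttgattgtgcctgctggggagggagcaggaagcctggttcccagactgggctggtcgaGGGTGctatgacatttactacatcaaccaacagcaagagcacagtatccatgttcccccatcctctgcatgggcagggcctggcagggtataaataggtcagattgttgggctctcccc
S100a6: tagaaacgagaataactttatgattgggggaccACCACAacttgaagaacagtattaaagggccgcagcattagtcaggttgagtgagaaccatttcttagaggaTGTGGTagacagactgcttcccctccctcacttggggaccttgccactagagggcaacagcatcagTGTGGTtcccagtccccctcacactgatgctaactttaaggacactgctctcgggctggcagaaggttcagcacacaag
Lgals3: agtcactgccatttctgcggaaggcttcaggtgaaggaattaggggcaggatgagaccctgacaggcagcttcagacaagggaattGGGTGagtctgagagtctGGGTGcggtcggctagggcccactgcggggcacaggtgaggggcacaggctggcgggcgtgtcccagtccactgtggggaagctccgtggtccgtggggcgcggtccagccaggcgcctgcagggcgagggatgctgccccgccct
The S100a6 window held 3 TGTGGT motifs and no CACCC, whereas the S100a4 and Lgals3 windows each held 2 CACCC motifs and no TGTGGT. Of 32851 promoter windows of the same length, 14% held TGTGGT, 52% CACCC, 6.75% TGANTCA and 3.33% TCACACC. The AP-1 motif was found in the windows of S100a11 (2 matches) and Anxa2 (1), and the T-box motif in that of S100a13 (1). Windows were read for 7 of the 9 genes, S100a10 and Lgals1 not being among them, and a match is a description of letters only.

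S100a4, S100a6 and Lgals3 were almost silent in stage 0-like cells and abundant in mature classes of every library. S100a6, whose product calcyclin binds annexins, stood at 33.8 and 13.7 CPM in stage 0-like cells of C57BL/6 replicates 1 and 2 and at 6.62 and 4.34 CPM in those of Hivep3-/- replicates 1 and 2. In iNKT1-like cells it stood at 1255 and 1025 CPM in C57BL/6 and at 1999 and 2140 CPM in Hivep3-/- libraries. The iNKT1-like level was thus 37.1 and 74.7 times the stage 0-like level in the C57BL/6 libraries and 302 and 493 times in the Hivep3-/- libraries, and the genotypes did not overlap. iNKT17-like cells reached 1295 to 1456 CPM and cycling-like cells 833 to 1107 CPM.

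S100a4, a metastasis-associated protein that binds non-muscle myosin, gave 1, 1, 0 and 6 UMIs in stage 0-like cells of C57BL/6 replicates 1 and 2 and Hivep3-/- replicates 1 and 2. Its iNKT1-like level was 174 times the stage 0-like level in C57BL/6 replicate 1 (95% exact counting interval 31.1 to 6870) and 95.2 times in C57BL/6 replicate 2 (17.1 to 3760). In Hivep3-/- replicate 1, against a floor of 3 UMIs, it was at least 274-fold higher, and in Hivep3-/- replicate 2 it was 225 times the stage 0-like level. iNKT17-like cells held 347 and 786 CPM in C57BL/6 libraries and 347 and 796 CPM in Hivep3-/- libraries, so the spread within a genotype exceeded any gap between genotypes there. Among the 4 later classes, S100a4 was lowest in iNKT2-like cells of all 4 libraries, at 46.5 to 82.4 CPM.

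Lgals3, which encodes a galectin with a collagen-like tail that can cross-link glycoproteins, was, among the 5 classes, highest in iNKT17-like cells of all 4 libraries, at 1073 and 816 CPM in C57BL/6 and 380 and 585 CPM in Hivep3-/- cells. Stage 0-like cells held 11 and 9.15 CPM in C57BL/6 and 1.32 and 0.868 CPM (3 and 2 UMIs) in Hivep3-/- libraries. From stage 0-like to iNKT1-like cells it was 15.4 and 22.3 times higher in the C57BL/6 libraries. The Hivep3-/- ratios rest on few UMIs, at 139 (counting interval 47.6 to 675) and 304 (84.2 to 2510). In the C57BL/6 libraries the cycling-like and iNKT2-like levels stood above the iNKT1-like level, whereas in the Hivep3-/- libraries they stood below it.

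**Figure D1:**
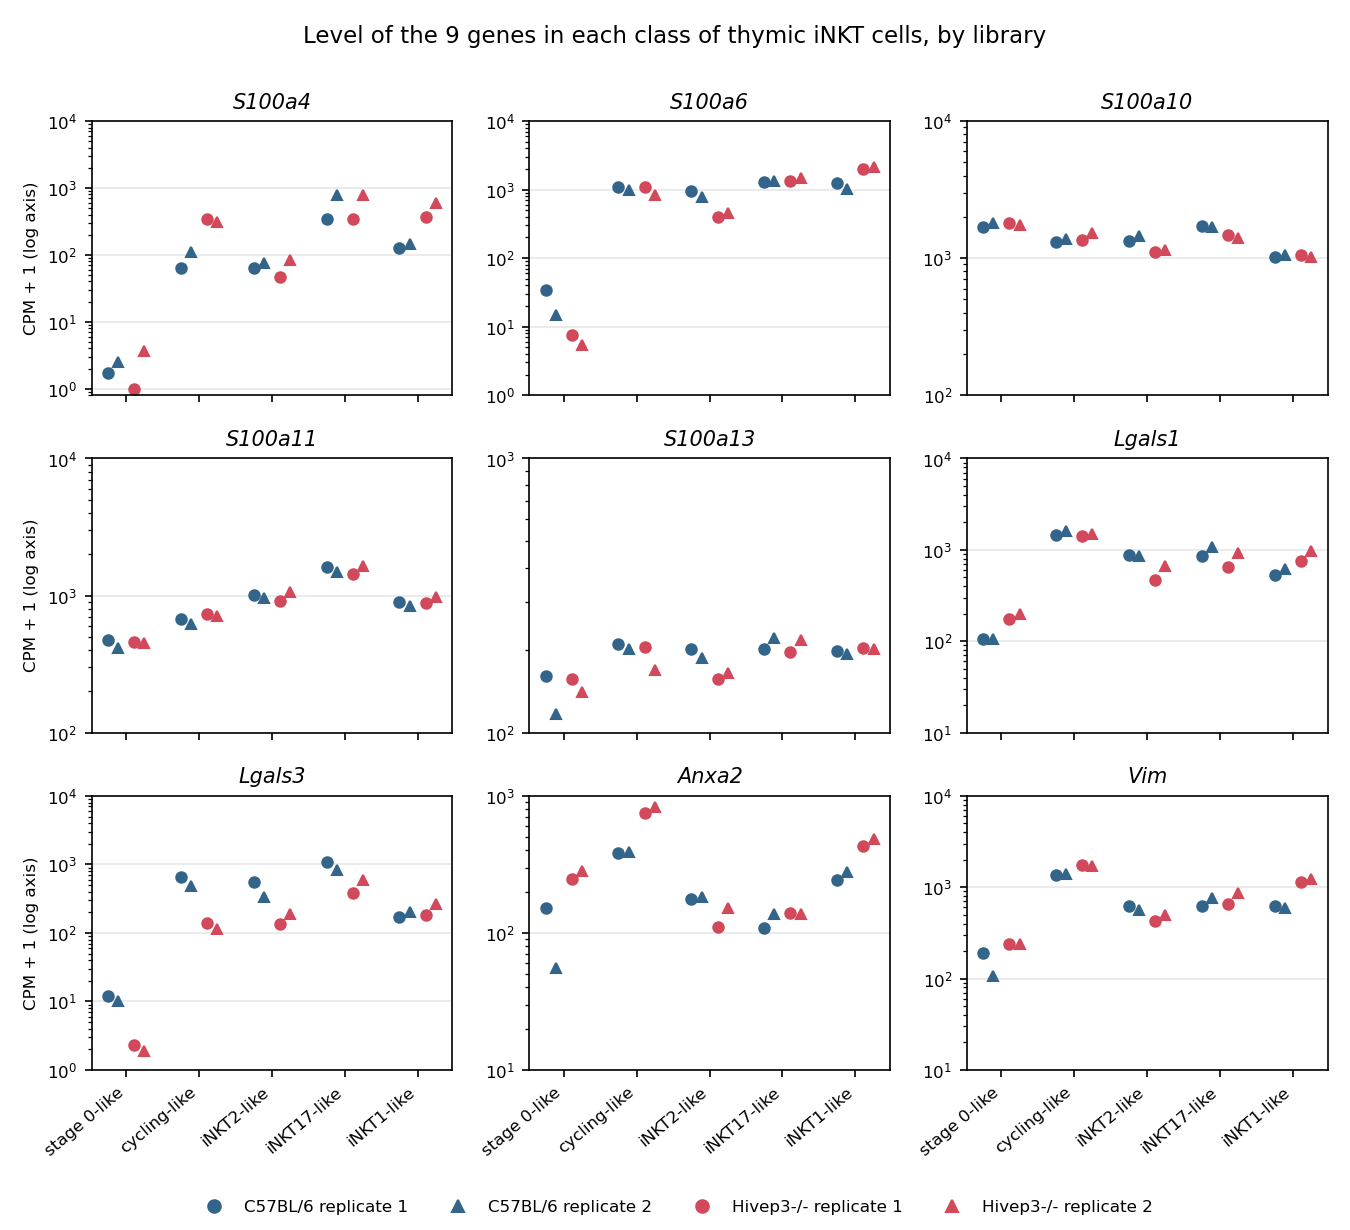
Level of each of the 9 genes (CPM + 1, log axis, a scale of its own per gene) in the 5 classes of cells; each point is 1 library, blue for C57BL/6 and red for Hivep3-/-, circles for replicate 1 and triangles for replicate 2. S100a4, S100a6 and Lgals3 start near 0 in stage 0-like cells, with S100a6 at 4.34 to 33.8 CPM, while S100a10 is lowest in iNKT1-like cells, at 1018 to 1057 CPM.

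Among the 5 classes, Lgals1, Vim and Anxa2 were highest in cycling-like cells of all 4 libraries. Lgals1, which encodes galectin-1, an extracellular regulator of T cell survival, went from 104 to 198 CPM in stage 0-like cells to 1416 to 1606 CPM in cycling-like cells and 524 to 967 CPM in iNKT1-like cells. Vim rose from 105 to 240 CPM in stage 0-like cells to 1345 to 1762 CPM in cycling-like cells, and stood at 591 to 1224 CPM in iNKT1-like cells. Anxa2 followed another course: it was above its stage 0-like level of 54.9 to 280 CPM in cycling-like cells (384 to 823 CPM) and in iNKT1-like cells (241 to 481 CPM) of each library, but not in iNKT17-like cells, at 108 to 138 CPM. In 3 of the 4 libraries the iNKT17-like level of Anxa2 was below its stage 0-like level.

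The remaining 3 S100 genes changed little by comparison. S100a11, which encodes a calcium-dependent partner of annexins, was, among the 5 classes, lowest in stage 0-like cells (413 to 475 CPM) and highest in iNKT17-like cells (1430 to 1635 CPM) of every library, and iNKT1-like cells held 1.88 to 2.15 times the stage 0-like level. S100a13, which takes part in the release of proteins that lack a signal peptide, moved from 116 to 160 CPM in stage 0-like cells to 193 to 203 CPM in iNKT1-like cells, 1.23 to 1.67 times. S100a10 went against the description of the list. Among the 5 classes it was lowest in iNKT1-like cells of all 4 libraries, at 1018 to 1057 CPM against 1686 to 1803 CPM in stage 0-like cells, or 0.583 to 0.604 times. Its annexin partner Anxa2 was 1.61 to 5.02 times higher in iNKT1-like than in stage 0-like cells of the same libraries.

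Inside the iNKT1-like class, 1 cluster led by Ccl5, Gzma and Ly6c2 was called late, after a list of late iNKT1 markers, and held 410 to 996 cells per library. S100a4 stood at 321 and 501 CPM in late cells of C57BL/6 libraries against 81.2 and 80.0 CPM in the other iNKT1-like clusters. In Hivep3-/- libraries it stood at 571 and 850 CPM in late cells against 270 and 427 CPM in the others. S100a6 was likewise higher in late cells, at 2462 to 3227 CPM against 746 to 1530 CPM in the others, and Vim at 1177 to 1804 CPM. S100a11 ran the other way in each library, with late cells at 0.725 to 0.881 times the level of the others. Late cells made up 726 of 3579 and 410 of 2474 iNKT1-like cells in the C57BL/6 libraries and 996 of 3114 and 915 of 2358 in the Hivep3-/- libraries.

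**Figure D2:**
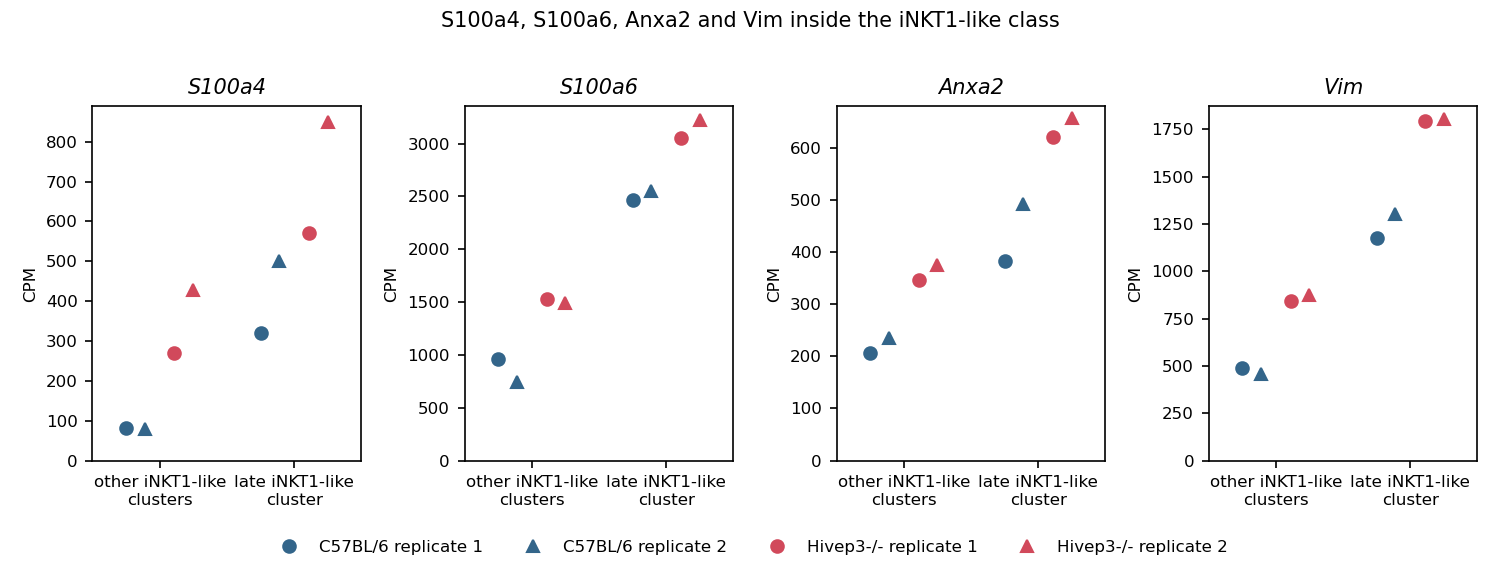
S100a4, S100a6, Anxa2 and Vim (CPM, linear axes from 0) in the late cluster and in the other clusters of the iNKT1-like class, 1 point per library, blue for C57BL/6 and red for Hivep3-/-. Each gene is higher in late cells of every library, and Hivep3-/- points lie above C57BL/6 points in both sets of cells, for S100a4 at 270 and 427 against 81.2 and 80.0 CPM in the clusters that are not late.

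The genotypes were compared on the summed UMIs of 2 libraries each, with the quasi-likelihood test of edgeR, and genes were called at a Benjamini-Hochberg adjusted p under 0.05 over the genes tested in that class. Nothing states that the mice came from separate litters or days, and p-values measure the spread between these libraries only. Where the levels of a gene are said not to overlap between genotypes, the share of all genes without overlap was not counted. With 2 libraries per genotype, such a gap is a description of the levels and not a test. Log2 differences are Hivep3-/- minus C57BL/6, with the standard error (SE). A level in a summed class cannot tell a change in every cell from a change in the share of cells that express the gene.

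**Figure D3:**
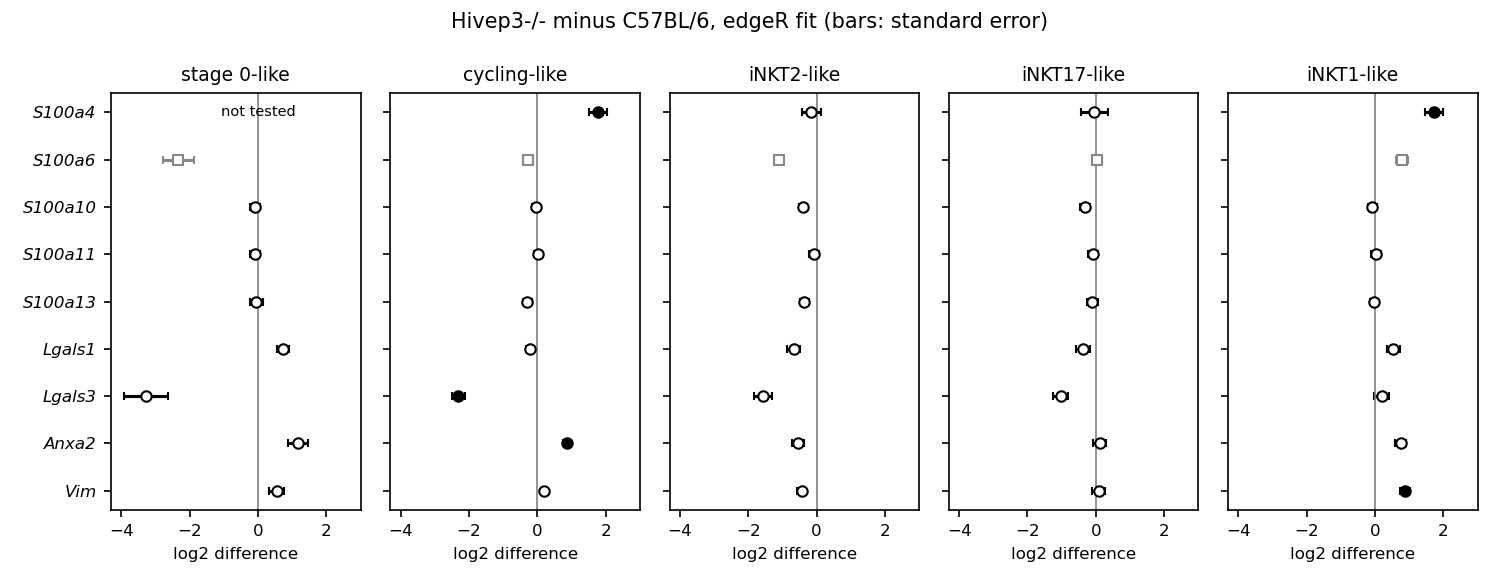
Fitted log2 difference, Hivep3-/- minus C57BL/6, for each gene in each class (bars, SE); filled circles passed the test at an adjusted p under 0.05, open circles did not, and open grey squares mark S100a6, which was described without a test. S100a4 lies at 1.78 in cycling-like and 1.74 in iNKT1-like cells, and Lgals3 at -2.31 in cycling-like cells.

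S100a6 was lower in Hivep3-/- stage 0-like cells and higher in Hivep3-/- iNKT1-like cells. The stage 0-like counts were 46 and 9 UMIs in C57BL/6 and 15 and 10 UMIs in Hivep3-/- libraries, or 33.8 (95% exact Poisson interval 24.8 to 45.1), 13.7 (6.27 to 26.1), 6.62 (3.71 to 10.9) and 4.34 CPM (2.08 to 7.98). The genotypes did not overlap, but the interval of C57BL/6 replicate 2 overlapped those of both Hivep3-/- libraries. Such intervals cover counting error only. The mean C57BL/6 level was 4.34 times the mean Hivep3-/- level, the fitted difference was -2.34, and without C57BL/6 replicate 1 it was -1.46. In iNKT1-like cells the mean Hivep3-/- level, 2070 ± 99.7 CPM (SD, n = 2), was 1.82 times the C57BL/6 mean of 1140 ± 163 CPM (n = 2), a fitted difference of 0.79. The fitted difference was -1.10 in iNKT2-like, -0.27 in cycling-like and 0.03 in iNKT17-like cells. iNKT2-like cells held 951 and 789 CPM in C57BL/6 and 401 and 459 CPM in Hivep3-/- libraries, which did not overlap. The cycling-like class as a whole overlapped, at 1107 and 992 against 1089 and 833 CPM, but its clusters did not move alike. The S phase cluster held 1091 and 948 against 793 and 784 CPM, and the cluster led by histone genes 948 and 1010 against 268 and 412 CPM. The cluster that held Gzma had 1734 and 1248 CPM in C57BL/6 and 2027 and 2332 CPM in Hivep3-/- libraries. In alternatives chosen after seeing the data, the cycling-like difference of S100a6 was -0.79 without the cluster that held Gzma and -0.50 in the S phase cluster alone. It was -1.12 with clusters drawn without correction between libraries, an alternative planned earlier. Over all kept cells S100a6 was 1057 and 950 CPM in C57BL/6 and 1478 and 1374 CPM in Hivep3-/- libraries, the reverse of the stage 0-like order.

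**Figure D4:**
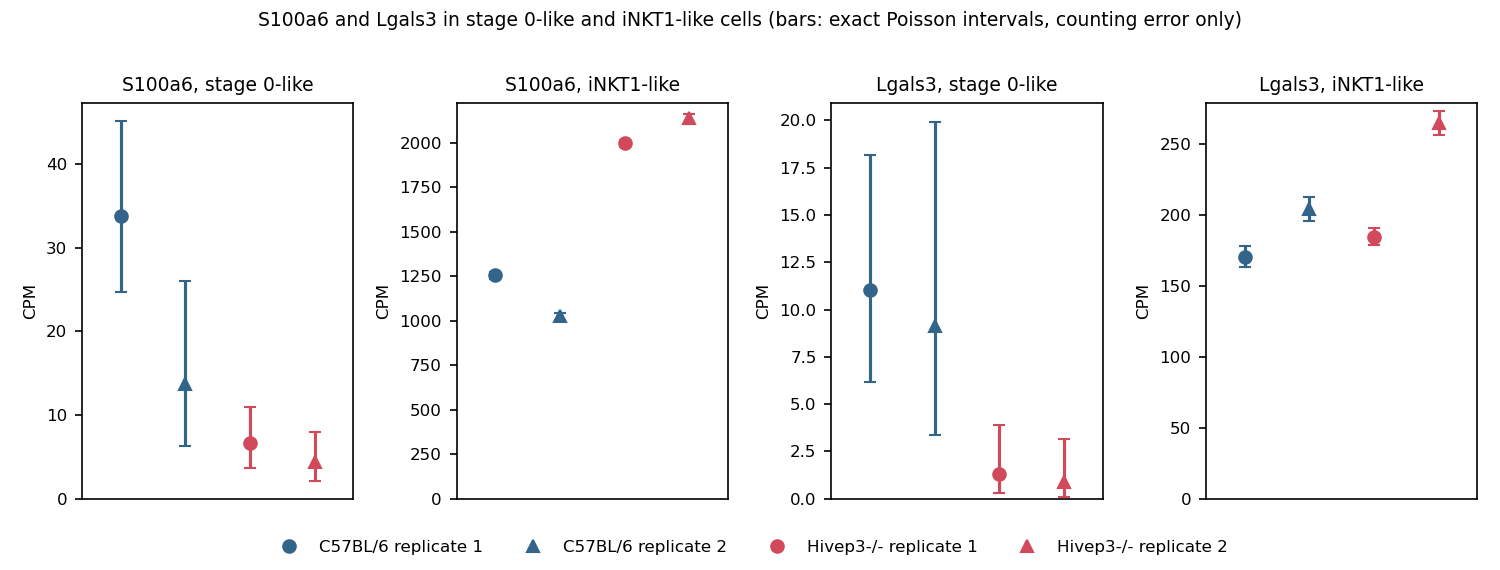
S100a6 and Lgals3 in stage 0-like and iNKT1-like cells (CPM, linear axes from 0), 1 point per library with its 95% exact Poisson interval, blue for C57BL/6 and red for Hivep3-/-. Hivep3-/- libraries lie below C57BL/6 libraries for both genes in stage 0-like cells, and in iNKT1-like cells above them for S100a6 (1999 and 2140 against 1255 and 1025 CPM), whereas for Lgals3 the genotypes overlap (184 and 264 against 170 and 204 CPM).

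In stage 0-like cells, 0 of the 7 other genes tested passed the edgeR test, where 0.219% of all 8664 genes did. S100a4 was too low to be tested. At an unadjusted p under 0.05 the count was 4, beside 687 of the 8664 genes, and DESeq2 called 0. Lgals3 came nearest: with 15 and 6 UMIs in C57BL/6 and 3 and 2 in Hivep3-/- libraries, its log2 difference was -3.27 (SE 0.643, adjusted p = 0.0723). Its counting intervals, 6.17 to 18.2 and 3.36 to 19.9 CPM in C57BL/6 and 0.273 to 3.87 and 0.105 to 3.13 CPM in Hivep3-/- libraries, overlapped for C57BL/6 replicate 2 and Hivep3-/- replicate 1, and without C57BL/6 replicate 1 it fell below the low-count filter. Lgals3 over all kept cells was 466 and 320 CPM in C57BL/6 and 159 and 207 CPM in Hivep3-/- libraries, the same order as in stage 0-like cells. Free RNA in droplets follows the level over all cells, and its part in the stage 0-like difference of Lgals3 was not tested. The 9 iNKT2 markers summed to 1157 and 1111 CPM in C57BL/6 and 802 and 712 CPM in Hivep3-/- stage 0-like cells and the 19 iNKT1 markers to 609 and 668 against 526 and 493 CPM, and their part in the S100a6 and Lgals3 differences was not tested. Of 11 macrophage and dendritic cell markers, 2 to 4 had a UMI in stage 0-like cells and Lyz2, C1qb, Adgre1, Mpeg1 and Siglech were at 0 in all 4 libraries, with summed levels of 159 to 180 CPM. The double positive thymocyte markers Rag1, Rag2, Dntt, Ptcra and Arpp21 gave a UMI in 67 of 1198 stage 0-like cells. Without these 67 cells, Lgals3 was -3.15 (adjusted p = 0.0769) and S100a6 -2.25. Cd8a and Cd8b1, also on that marker list, were not used here, so cells holding only these stayed in.

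Anxa2 and Lgals1 ran higher in Hivep3-/- stage 0-like cells without passing the test. Anxa2 stood at 150 and 54.9 CPM in C57BL/6 and 246 and 280 CPM in Hivep3-/- libraries, with no overlap and a log2 difference of 1.16 (SE 0.293, adjusted p = 0.176). It passed without C57BL/6 replicate 1 (2.12, adjusted p = 0.00136), without Hivep3-/- replicate 1 (1.30, adjusted p = 0.000109) and without Hivep3-/- replicate 2 (1, adjusted p = 0.0136), where the lone library of a genotype is assumed to vary like the pair, but not without C57BL/6 replicate 2 (0.70, adjusted p = 0.412). Lgals1 was 105 and 104 CPM in C57BL/6 and 175 and 198 CPM in Hivep3-/- libraries, with a difference of 0.72 (SE 0.176, adjusted p = 0.165). It passed without Hivep3-/- replicate 1 (0.85, adjusted p = 0.0388) but not with any other library left out (adjusted p = 0.237 to 0.502). The median difference of the 7 genes was -0.05, beside 0.02 over all genes.

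Whether a genotype difference itself changed from stage 0-like to iNKT1-like cells was tested with an interaction term and the library as a block, over 11124 genes, of which 2.54% passed. Lgals3 was the only gene of the 8 to pass. Its difference was 3.58 log2 units more positive in iNKT1-like cells (SE 0.554, adjusted p = 0.000144), and it passed under each of the 16 alternatives in which it was fitted (3.01 to 4.15). In iNKT1-like cells Lgals3 was 170 and 204 CPM in C57BL/6 and 184 and 264 CPM in Hivep3-/- libraries, which overlapped. For S100a6 the same quantity was 3.14, given as a description, and 2.40 without C57BL/6 replicate 1. A second gene, Anxa2, passed without C57BL/6 replicate 1.

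In cycling-like cells 3 of the 8 genes passed, where 3.98% of all 10358 genes did. Lgals3 fell: it was 661 and 480 CPM in C57BL/6 and 141 and 114 CPM in Hivep3-/- libraries, a log2 difference of -2.31 (SE 0.183, adjusted p = 0.00121). S100a4 rose from 63.4 and 111 CPM to 346 and 313 CPM, a difference of 1.78 (SE 0.25, adjusted p = 0.0109). Anxa2 rose from 384 and 391 CPM to 743 and 823 CPM, a difference of 0.87 (SE 0.121, adjusted p = 0.0104). None of the 3 genes overlapped between genotypes, and all 3 passed with any 1 library left out. Vim was 1345 and 1397 CPM in C57BL/6 and 1762 and 1728 CPM in Hivep3-/- libraries, and Lgals1 1446 and 1606 against 1416 and 1494 CPM. Neither passed. The median difference of the 8 genes was -0.01, beside 0.03 over all genes.

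The makeup of the cycling-like class moved with genotype. The summed level of the 19 iNKT1 markers was 916 and 1290 CPM in C57BL/6 and 4988 and 3259 CPM in Hivep3-/- libraries, and that of the 9 iNKT2 markers 1668 and 1554 against 835 and 820 CPM. In alternatives chosen after seeing the data, the calls were repeated without the cycling cluster that held Gzma and in the cluster led by S phase genes alone. Lgals3 was called in both, at -2.78 and -2.54 (adjusted p = 0.000732 and 7.49e-05), as were S100a4, at 1.38 and 1.97 (adjusted p = 0.0175 and 0.00131), and Anxa2, at 0.89 and 0.95 (adjusted p = 0.00596 and 0.00328). With clusters drawn without correction between libraries, Lgals3 was the only call, and S100a4 was 0.49 (adjusted p = 0.470) and Anxa2 0.51 (adjusted p = 0.0792). Marker sums were not taken within these sets of cells. The part of cells with these marker lists in the differences of cycling-like cells was not tested.

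In iNKT1-like cells, 2 of the 8 genes passed, S100a4 and Vim, where 0.926% of all 10799 genes did. S100a4 was 128 and 145 CPM in C57BL/6 and 363 and 586 CPM in Hivep3-/- libraries, a log2 difference of 1.74 (SE 0.258, adjusted p = 0.0332). Vim was 624 and 591 CPM in C57BL/6 and 1138 and 1224 CPM in Hivep3-/- libraries, a difference of 0.88 (SE 0.146, adjusted p = 0.0492). Neither gene overlapped between genotypes. Anxa2 was also apart, at 241 and 275 against 432 and 481 CPM, a difference of 0.75 (SE 0.152, adjusted p = 0.0942), and DESeq2 called it beside S100a4 and Vim. Lgals1 was 524 and 609 CPM in C57BL/6 and 755 and 967 CPM in Hivep3-/- libraries and did not pass. The median difference of the 8 genes was 0.36, beside -0.004 over all genes.

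S100a4 was no longer called without C57BL/6 replicate 1 (1.66, adjusted p = 0.0839), without C57BL/6 replicate 2 (1.83, adjusted p = 0.0560) or without Hivep3-/- replicate 2 (1.26, adjusted p = 0.0570), but was called without Hivep3-/- replicate 1 (2.10, adjusted p = 0.0157). Vim was lost without any 1 library (adjusted p = 0.200, 0.284, 0.0591 and 0.108). Without the late cluster, whose share of iNKT1-like cells was higher in Hivep3-/- libraries, S100a4 was 2.04 (adjusted p = 0.0163) and Vim 0.77 (adjusted p = 0.0863). The clusters that remained still included 104 cells led by Klrg1 and S1pr5, with Ccl5 and Gzma among their 10 leading genes. Of these cells, 85 came from Hivep3-/- replicate 1. Within the late cluster, S100a4 was 0.74 (adjusted p = 0.522) and Vim 0.47 (adjusted p = 0.404). The summed iNKT1 markers were 10010 and 10500 CPM in C57BL/6 and 12410 and 12770 CPM in Hivep3-/- iNKT1-like cells. The iNKT2 markers were 694 and 681 against 396 and 330 CPM, and the 7 double positive thymocyte markers 4.24 and 3.75 against 21.4 and 19.98 CPM. Of these 7, 4 and 6 had a UMI in C57BL/6 and 3 and 4 in Hivep3-/- libraries, where Rag1, Rag2 and Ptcra had none. The part of cells with these marker lists in the S100a4 and Vim differences was not tested.

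In iNKT2-like cells, 0 of the 8 genes passed the edgeR test, where 0.257% of 9743 genes did, but all 8 fitted differences lay below 0 and 6 had an unadjusted p under 0.05, as had 966 of the 9743 genes. The sign of S100a11 turned when scaled to total UMIs, and the signs of S100a4 and S100a11 turned without Hivep3-/- replicate 1. The median difference was -0.42, beside 0.02 over all genes. Lgals3 was 556 and 337 CPM in C57BL/6 and 132 and 185 CPM in Hivep3-/- libraries, a difference of -1.58 (SE 0.267, adjusted p = 0.0765). DESeq2 called Lgals3, and edgeR called it without C57BL/6 replicate 1 (-1.18, adjusted p = 0.0179), without C57BL/6 replicate 2 (-1.89, adjusted p = 7.52e-05) and without Hivep3-/- replicate 2 (-1.91, adjusted p = 0.00573), but not without Hivep3-/- replicate 1 (-1.31, adjusted p = 0.0570). Lgals1 was 872 and 847 against 470 and 667 CPM, Vim 615 and 564 against 428 and 494 CPM and Anxa2 176 and 181 against 109 and 150 CPM. Each of these was lower in both Hivep3-/- libraries, so the direction of Vim and Anxa2 was the reverse of that in iNKT1-like cells, a contrast that was not tested. In the same cells the iNKT1 markers summed to 1159 and 1268 CPM in C57BL/6 and 1887 and 1773 CPM in Hivep3-/- libraries, and the iNKT2 markers to 2278 and 2174 against 1791 and 1633 CPM. Their part in the differences of iNKT2-like cells was not tested.

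In iNKT17-like cells, 0 of the 8 genes passed the edgeR test, where 0.0657% of 7605 genes did. At an unadjusted p under 0.05 the count was 2, beside 419 of the 7605 genes, and DESeq2 called 0. Lgals3 was again lower in both Hivep3-/- libraries, at 380 and 585 CPM against 1073 and 816 CPM, a difference of -1.03 (SE 0.224, adjusted p = 0.200). It passed without C57BL/6 replicate 2 (-1.20, adjusted p = 0.000282) and without Hivep3-/- replicate 2 (-1.44, adjusted p = 0.000311), but not without C57BL/6 replicate 1 (-0.83, adjusted p = 0.0742) or Hivep3-/- replicate 1 (-0.72, adjusted p = 0.131). Lgals3 was thus lower in both Hivep3-/- libraries in 4 classes, the exception being the iNKT1-like class. These classes come from the same 4 libraries and are not separate replicates. Vim was 618 and 754 CPM in C57BL/6 and 652 and 868 CPM in Hivep3-/- libraries, which overlapped, and the median difference of the 8 genes was -0.09, beside 0.004 over all genes.

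S100a10, S100a11 and S100a13 passed in no class. Their levels in cycling-like cells were 1309 and 1384 against 1366 and 1513 CPM, 674 and 615 against 734 and 705 CPM, and 210 and 201 against 204 and 168 CPM, C57BL/6 first. In iNKT1-like cells S100a10 was 1018 and 1057 against 1056 and 1023 CPM, S100a11 895 and 840 against 885 and 973 CPM, and S100a13 197 and 193 against 203 and 201 CPM.

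A cluster of 139 and 24 cells in C57BL/6 and 282 and 380 cells in Hivep3-/- libraries, led by Tnni1 and Htra3, held 5 stage 0 markers among its 50 leading genes but none among the first 10 and was left unnamed. It was compared after seeing the data. S100a6 there was 416 and 419 CPM in C57BL/6 and 963 and 1252 CPM in Hivep3-/- libraries, the direction of iNKT1-like and not of stage 0-like cells. Of the 8 other genes 4 passed, where 4.01% of 8819 genes did. S100a4 rose from 49.9 and 40.8 to 340 and 528 CPM (log2 difference 3.16, SE 0.275, adjusted p = 1.26e-05) and Anxa2 from 256 and 174 to 917 and 899 CPM (1.97, SE 0.187, adjusted p = 2.92e-05). Lgals1 rose from 441 and 312 to 1105 and 1524 CPM (1.73, SE 0.212, adjusted p = 0.000272), and Vim from 649 and 579 to 1405 and 1619 CPM (1.25, SE 0.165, adjusted p = 0.000449). Lgals3, at 157 and 44.5 against 79.6 and 169 CPM, overlapped. C57BL/6 replicate 2 gave this cluster only 24 cells.

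Related genes were read from lists that were written with earlier results of these data known. Of all genes tested, 3.98% passed in cycling-like and 0.926% in iNKT1-like cells, and 1 call in a short list says little about that list. Of 11 other S100 genes, 2 were high enough to test in cycling-like cells and 1 passed, S100a1 (1.73, adjusted p = 0.0360). Of the 11 other annexins, 6 were tested in cycling-like, iNKT2-like and iNKT1-like cells and none passed in any class, with 5 tested in the other classes. Anxa6, the most abundant of them, stood at 0.66 in cycling-like cells (adjusted p = 0.0586) and 1.07 in stage 0-like cells (adjusted p = 0.122). Of the 9 other galectins, Lgals7 was lower in Hivep3-/- cycling-like cells (-1.53, adjusted p = 0.0317), 1 of 5 tested, and no other passed in a class. Of 10 other intermediate filament and lamin genes, 3 to 5 were high enough to test in a class and none of those passed. Of 16 genes of T cell motility and adhesion, the unconventional myosin Myo1f was higher in cycling-like cells (2.11, adjusted p = 0.0212) and S1pr1, a receptor for the lipid that guides thymic exit, was higher in iNKT1-like cells (1.02, adjusted p = 0.0444), 1 of 16 in each class. For the change of the genotype difference from stage 0-like to iNKT1-like cells, 2.54% of all 11124 genes passed. Anxa7 (0.93, 1 of 6 other annexins tested), Lgals3bp (0.87, 1 of 6 other galectins), the actin-capping gene Capg (1.29) and the integrin gene Itgb1 (0.88) passed with positive values. Lmnb1 (-0.82, 1 of 4 intermediate filament and lamin genes) and Klf2 (-1.30) passed with negative values, with adjusted p values of the 6 genes from 0.000492 to 0.0402. Of the 16 genes of T cell motility and adhesion, 2 passed with a positive and 1 with a negative value. The 1 other S100 gene tested did not pass.

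Across the 20 sums of 5 classes and 4 libraries, the 9 genes did not follow a single course. The strongest Pearson correlations of log2(CPM + 1) were between Lgals1 and Vim (0.946), S100a6 and Lgals3 (0.941) and S100a4 and S100a6 (0.931), whereas S100a10 was negatively correlated with each of the other 8 genes (-0.609 to -0.283). Anxa2 and Lgals3, both called in cycling-like cells but in opposite directions, gave 0.0488. The non-member genes most like the mean course of the 9 genes, among 5319 genes averaging 20 CPM or more, were Clic1 (r = 0.952), Emp3 (0.924), Itgb7 (0.921), S1pr4 (0.909) and Golm1 (0.905), followed by Degs1, Lsp1, Myl12b, Rps6ka3 and Sla2 (0.898 to 0.881). The 20 sums share 4 libraries and 5 classes, and these correlations are a description.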

How the data were processed

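Counts deposited by the authors were UMI counts per gene and cell barcode, raw and unnormalized, made per the submitters' processing notes with Cell Ranger 3.1.0 on mm10 (the notes also name Seurat 3.1.4). From these counts, cells with at least 500 and under 4100 genes, at least 1000 UMIs and under 6% mitochondrial UMIs were kept. Cells were clustered in Seurat 5.3.0 on 2000 variable genes, without the 9 genes, 26 genes named by the study and 6 sex-linked genes, after 30 components corrected between libraries by mutual nearest neighbours (resolution 0.8). Clusters were named from fixed markers by a rule set after seeing the data, with at least 3 markers among the 50 leading genes and 1 among the first 10. Scrublet (scanpy 1.11.5) marked 0 to 5 cells per library, which was taken as not having worked, and no doublet was removed. UMIs summed per library and class were tested with edgeR 4.0.16 (filterByExpr, TMM, quasi-likelihood, two-sided, Benjamini-Hochberg), with DESeq2 1.42.0 as an alternative. The members and lists were chosen with earlier results of these data known. Log2 differences are given for S100a6 and for members with an adjusted p under 0.25, and related genes are named where called or most abundant. The interaction test used the library as a block. The edgeR step was tested on simulated data. Depth ranged from 655925 UMIs (stage 0-like cells of C57BL/6 replicate 2) to 20502380 UMIs (iNKT1-like cells of Hivep3-/- replicate 1) per sum. Alternatives changed the filters, scaling, clustering, doublets and replicate block and left out each library in turn.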

Additional observations from a re-analysis of the deposited data

Results flagged for a closer look

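For 2 genes the difference between genotypes changed from stage 0-like to iNKT1-like cells, and each is given as a value with no explanation. The genotype difference of S100a6 was 3.14 log2 units more positive in iNKT1-like than in stage 0-like cells. The gene was listed for this contrast in these same libraries, so no test is given and the order of the libraries is a description. Both Hivep3-/- libraries lay below the C57BL/6 libraries in stage 0-like cells and above them in iNKT1-like cells. The stage 0-like levels of S100a6 rest on 46 and 9 UMIs in C57BL/6 and 15 and 10 UMIs in Hivep3-/- libraries. The genotype difference of Lgals3 was 3.58 log2 units more positive in iNKT1-like cells (edgeR interaction test, adjusted p = 0.000144). It rests on 15, 6, 3 and 2 UMIs in stage 0-like cells, and the iNKT1-like levels of the genotypes overlapped.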

How the results depend on the processing

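There were 20 alternative settings, of which 4 were chosen after seeing the data, and 279 values under them of S100a6 and of those members with an adjusted p under 0.25 in a comparison, of which 214 kept their direction and their side of the threshold (for S100a6, stayed within the spread between replicates), 26 gained a call, 17 lost it, 18 S100a6 values moved and 4 turned sign. Members with a higher adjusted p are not among these values; some of them lay near 0 and turned sign, as in iNKT2-like cells. The cause of these changes was not tested. The counts of called members that follow stand without the number of all genes called under the same setting. That number moved too, in iNKT2-like cells from 19 to 557 (25 as reported), so a higher count is not a result about the members. Of the 8 tested members, the count called in stage 0-like cells (0) became 3 without the low-count filter, 3 with the replicate block, 1 at resolution 1.2, 4 in the Tnni1 and Htra3 cluster, and 0 to 2 with 1 library left out. In cycling-like cells (3) it was 1 without correction between libraries and 3 with any library left out. In iNKT2-like cells (0) it was 1 with DESeq2, 3 without the filter, 5 with the replicate block and 0 to 3 with 1 library left out. In iNKT17-like cells (0) it was 1 without the filter, 1 with the replicate block and 0 to 1 with 1 library left out. In iNKT1-like cells (2) it was 4 without the filter, 0 at resolution 1.2, 1 without correction between libraries, 0 with members among the variable genes, 1 without the late cluster, 0 in the late cluster only and 0 to 1 with 1 library left out. For the change from stage 0-like to iNKT1-like cells (1) it was 2 at resolution 1.2, 2 without correction and 1 to 2 with 1 library left out. The sign turned for S100a6 (1.37) and Lgals3 (0.0476) in the Tnni1 and Htra3 cluster, and for S100a6 in iNKT17-like cells without C57BL/6 replicate 1 (-0.00598) or Hivep3-/- replicate 2 (-0.0844), with a range over single libraries left out of -0.0844 to 0.123.

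The sources do not say whether same-numbered libraries share more than a number. Their deviations correlated at 0.152 to 0.240 with 2 pairs, and a shared batch was not tested. The replicate block gave 3 called members in cycling-like and 3 in iNKT1-like cells. The number of all genes called ranged from 243 to 1137 in cycling-like cells (412 as reported), 29 to 578 in iNKT1-like (100), 2 to 92 in iNKT17-like (5), 19 to 557 in iNKT2-like (25), 8 to 354 in stage 0-like cells (19, the highest being the Tnni1 and Htra3 cluster) and 83 to 367 for the interaction (283). S100a10 was lower in iNKT1-like than stage 0-like cells by level and by thinned share of cells in all 4 libraries, and higher in 4 by the share of cells without thinning. Related genes were fitted as reported only. Depth limits the stage 0-like values of S100a4, S100a6 and Lgals3, each under 50 UMIs in every library.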
